A study of Homo sapiens with 6 samples.

Results

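The genes described here lie in the distal long arm of human chromosome 7, in bands q34 to q36. The list holds 35 protein-coding genes, and each was matched by symbol to its row among the 35544 loci of the deposited table. A symbol in a row that joins several gene names counted as a match. On GRCh38 the listed genes run from PARP12 (start 140023744) to ACTR3B (end 152855378). They were selected on the fold changes of this same comparison, as a stretch in which neighbouring genes had shifted together. Their fold changes and calls are therefore given as a description, with no test, and counts of calls among them support nothing by themselves.

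All libraries came from SiHa, an established human cervical squamous carcinoma cell line that carries integrated papillomavirus sequence. One group of cells received a plasmid to overexpress hsa_circ_0005358, a circular RNA (circ_0005358, 3 libraries), and the other a vector plasmid (vector, 3 libraries). Both were collected 72 h after transfection. The labels spell the number of the circular RNA in several ways, and it is named here as in the stated aim. PolyA RNA was sequenced, and the comparison was made by the study to look for mRNAs downstream of the circular RNA. The labels do not say that the libraries of a group came from separate cultures. The errors given here therefore rest on the spread between libraries, which may be technical.

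Genes that share a stretch of chromosome need not share a function. The listed genes include a RAF kinase that passes signals from RAS to the ERK cascade, the GTPase that switches on the growth regulator mTORC1, the enzyme that places the repressive methyl marks of Polycomb complexes, the scaffold of the SCF ubiquitin ligases and several proteins of mitochondria. Loss of the distal long arm of chromosome 7 is a recurrent change in myeloid neoplasms, where EZH2, CUL1 and KMT2C are among the genes studied for it.

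FPKM, the unit of the table, counts fragments per kilobase of transcript and per unit of sequencing depth, so levels can be set beside each other between genes. Loci with FPKM of at least 1 in 3 or more of the 6 libraries were tested, which kept 10295 loci. limma was fitted on log2(FPKM + 1), and a locus was called at a Benjamini-Hochberg adjusted p under 0.05 over all tested loci. Fold changes are circ_0005358 minus vector on that scale, on which changes of weakly expressed genes come out too small. Their SE is the moderated one of limma, drawn toward a variance trend over all tested loci. An SD is the plain spread of the libraries of a group. Sums of FPKM lay between 141895 and 145278 in the circ_0005358 libraries and between 138864 and 141833 in the vector libraries. The table holds no counts. The value of 1 fragment on loci with a single transcript put circ_0005358 replicate 2 at 71.1% of the depth of vector replicate 2, the deepest, and the remaining 4 at 93.6% or more. Vector replicate 3 listed 27803 loci above 0, against 23227 to 23834 in the other libraries. All 9 epithelial and cervical carcinoma markers averaged at least 1 FPKM over the 6 libraries, and their summed level lay between 638 and 727 FPKM with circ_0005358 and between 1320 and 1398 FPKM with vector. Among them CDH1, the gene of E-cadherin, averaged 0.958 FPKM with circ_0005358 and 13.8 FPKM with vector. The keratin gene KRT17 averaged 205 FPKM with circ_0005358 and 625 FPKM with vector. CDKN2A alone averaged higher with circ_0005358, at 17.65 FPKM against 15.79 FPKM with vector. Leukocyte markers summed to 52.6 to 69.7 FPKM with circ_0005358 and 65.4 to 68.1 FPKM with vector, nearly all from CD68 and CD14, while the pan-leukocyte marker PTPRC did not exceed 0.0605 FPKM in any library. Fibroblast markers summed to 1.85 to 2.34 FPKM with circ_0005358 and 6.98 to 10.4 FPKM with vector. Most of this came from LUM, which averaged 1.43 FPKM with circ_0005358 and 7.47 FPKM with vector. The other fibroblast markers stayed below 1 FPKM, with COL1A1 and COL1A2 lower and DCN and PDGFRB higher with circ_0005358. Endothelial markers summed to at most 0.372 FPKM with circ_0005358 and 0.692 FPKM with vector. The part of these shifts in the values below was not tested.

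Of the 35 listed genes, 29 passed the filter on low values, and 28 of them had a positive log2 fold change, against 53.0% of all tested loci. AGK, at 0.02 among the 28, was negative under each of 3 rescalings of the libraries. Their median log2 fold change was 0.34, with quartiles of 0.19 and 0.55, beside a median of 0.02 over all tested loci with quartiles of -0.15 and 0.20. The fit called 13 of the 29 higher with circ_0005358 and 0 lower, and at an unadjusted p under 0.05 the counts were 19 and 0. Over all tested loci 11.4% were called, 6.41% higher and 4.96% lower. In 21 of the 29 every circ_0005358 library lay above every vector library, against 19.8% of all tested loci. In bulk RNA a higher level in every cell and a larger share of cells with a high level cannot be told apart.

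The width of the spread was about that of the transcriptome as a whole: the interquartile range of the log2 fold changes was 0.36 among the listed genes and 0.35 over all tested loci. On the linear scale the ratio of group means had a median of 1.34 and quartiles of 1.15 and 1.47. Of the 29 genes, 15 had ratios from 1.2 to 1.5, 6 had ratios above 1.5 and 8 had ratios below 1.2. Summed over the 29 genes, the libraries held 530 ± 9.32 FPKM with circ_0005358 and 375 ± 2.19 FPKM with vector (SD, n = 3 each), a ratio of 1.41, while the sum over all other loci had a ratio of 1.02.

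Promoters of the listed genes were read to see what the genes share apart from position. RefSeq windows of 300 bases on GRCh38.p14, from 250 before to 50 after the start, matched 33 of the 35 genes by symbol, 27 of them tested here. The letters GGGCGG, known as the GC box, were found on either strand in 20 of the 27 windows, a share of 74.1%, beside 72.6% of 7301 windows of genes tested here and 44.6% of all 27305 windows. The CCAAT box was in 44.4% of the 27, beside 37.2% of windows of tested genes and 35.7% of all windows. The E box CACGTG was in 14.8%, beside 10.5% and 7.43% of these sets. The ETS motif CCGGAAG was in 11.1%, beside 20.7% and 10.7%. The TATA box TATAAA was in 0 of the 27 windows, beside 5.14% and 12.0%. The median GC content of the 33 windows was 65.7%, beside 66.0% over the tested genes. The shares of GGGCGG and the GC content were close to those of the tested genes. A match is a description and not a binding site, and each motif was counted separately, also where matches of different motifs overlap. The windows of SLC4A2 and CDK5, which start back to back, overlap.

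Promoter windows are shown for the genes with the largest log2 fold changes, NUB1 and SLC4A2, and for the one with the smallest, PARP12, each 5′ to 3′, with matches on either strand to any of these 5 motifs in capitals (RefSeq, GRCh38.p14).
NUB1, chr7:151341562-151341861, plus strand: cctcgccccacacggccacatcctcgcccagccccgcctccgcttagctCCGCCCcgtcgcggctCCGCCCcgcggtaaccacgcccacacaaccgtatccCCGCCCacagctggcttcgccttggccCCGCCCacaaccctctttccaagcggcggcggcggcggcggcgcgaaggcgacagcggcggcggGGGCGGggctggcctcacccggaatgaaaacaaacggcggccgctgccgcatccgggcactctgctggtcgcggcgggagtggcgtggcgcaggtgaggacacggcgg
SLC4A2, chr7:151057950-151058249, plus strand: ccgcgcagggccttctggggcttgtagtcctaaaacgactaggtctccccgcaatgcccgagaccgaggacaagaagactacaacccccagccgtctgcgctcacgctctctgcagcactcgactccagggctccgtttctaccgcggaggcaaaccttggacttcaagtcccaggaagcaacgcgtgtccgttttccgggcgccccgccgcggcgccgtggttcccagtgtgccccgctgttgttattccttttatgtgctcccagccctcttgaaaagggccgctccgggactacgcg
PARP12, chr7:140062902-140063201, minus strand: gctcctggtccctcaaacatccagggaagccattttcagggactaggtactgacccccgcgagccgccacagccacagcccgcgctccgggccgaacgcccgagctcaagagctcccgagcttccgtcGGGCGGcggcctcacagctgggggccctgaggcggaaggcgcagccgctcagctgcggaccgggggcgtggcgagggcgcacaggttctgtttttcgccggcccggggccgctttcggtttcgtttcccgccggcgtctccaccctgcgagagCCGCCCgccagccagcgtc
The NUB1 window held 5 GC boxes, the PARP12 window 2 and the SLC4A2 window 0, and the other motifs were in none of the 3. NUB1 and SLC4A2, with log2 fold changes of 1.01 and 0.93, stood at either end of this count.

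Counts by role, here and below, are of few genes chosen for their fold changes, and they say nothing about a role. Over all tested loci 6.41% were called higher, and in 19.8% every circ_0005358 library lay above every vector library. The 4 genes of ubiquitin and NEDD8 biology had a median log2 fold change of 0.63, and in all 4 every circ_0005358 library lay above every vector library. NUB1, CUL1 and TMUB1 were called higher and MKRN1 was not called. NUB1, which steers proteins tagged with the ubiquitin-like NEDD8 to the proteasome, had the largest log2 fold change of the 29 genes. It stood at 60.01, 53.2 and 58.1 FPKM in the 3 circ_0005358 libraries, against 27.9, 28.1 and 27.5 FPKM in the 3 vector libraries. The lowest circ_0005358 library lay well above the vector libraries, which were within 1 FPKM of each other, with a log2 fold change of 1.01 (SE 0.060). CUL1, the scaffold of SCF ligases that NEDD8 activates, stood at 43.99, 38.7 and 45.4 FPKM in the 3 circ_0005358 libraries, against 28.9, 29.7 and 27.6 FPKM in the 3 vector libraries. The groups were apart, with a log2 fold change of 0.55 (SE 0.076). TMUB1, a membrane protein with a ubiquitin-like domain, averaged 9.73 ± 1.18 FPKM with circ_0005358 and 6.18 ± 0.229 FPKM with vector (SD, n = 3 each), with a log2 fold change of 0.57 (SE 0.094).

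MKRN1, a RING-type ubiquitin ligase, divided the vector libraries. It stood at 16.2, 15.1 and 15.3 FPKM in the 3 circ_0005358 libraries, against 14.7, 7.15 and 7.71 FPKM in the 3 vector libraries. Vector replicate 1 was close to the circ_0005358 libraries and the other vector libraries were far lower, and its log2 fold change of 0.68 (SE 0.260) was not called.

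Among kinases, small GTPases and receptors, 5 of 7 genes were tested, all 5 had positive fold changes, and RHEB, BRAF and AGAP3 were called higher. RHEB, the GTPase that activates mTORC1, was abundant and stood at 68.9, 57.98 and 63.9 FPKM in the 3 circ_0005358 libraries, against 47.8, 48.6 and 46.4 FPKM in the 3 vector libraries. Its lowest circ_0005358 value was in replicate 2, the shallowest library, and the groups did not overlap (log2 fold change 0.41, SE 0.075). BRAF, the RAF kinase between RAS and MEK, averaged 6.33 ± 0.0490 FPKM with circ_0005358 and 4.996 ± 0.269 FPKM with vector (SD, n = 3 each). The circ_0005358 libraries of BRAF were nearly identical, all 3 above the vector libraries, with a log2 fold change of 0.29 (SE 0.059).

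AGAP3, which carries a GTPase-activating domain for ARF proteins, had a ratio of 1.899. It stood at 4.46, 4.75 and 4.74 FPKM in the 3 circ_0005358 libraries, against 2.41, 2.36 and 2.58 FPKM in the 3 vector libraries, with a log2 fold change of 0.71 (SE 0.060). All circ_0005358 libraries of AGAP3 were above all vector libraries. CDK5, a kinase best known from neurons, stood at 8.97, 7.49 and 8.07 FPKM in the 3 circ_0005358 libraries, against 5.86, 5.81 and 7.73 FPKM in the 3 vector libraries. Vector replicate 3 lay above circ_0005358 replicate 2, so the CDK5 groups overlapped and its log2 fold change of 0.30 (SE 0.125) was not called. PRKAG2, a regulatory subunit of the energy sensor AMPK, had a log2 fold change of 0.10 (SE 0.161) and overlapping groups. The ephrin receptor gene EPHA1 and the RAB exchange factor gene DENND2A were below the filter, with no library above 0.367 and 0.269 FPKM, both highest in vector replicate 3.

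**Figure D1:**
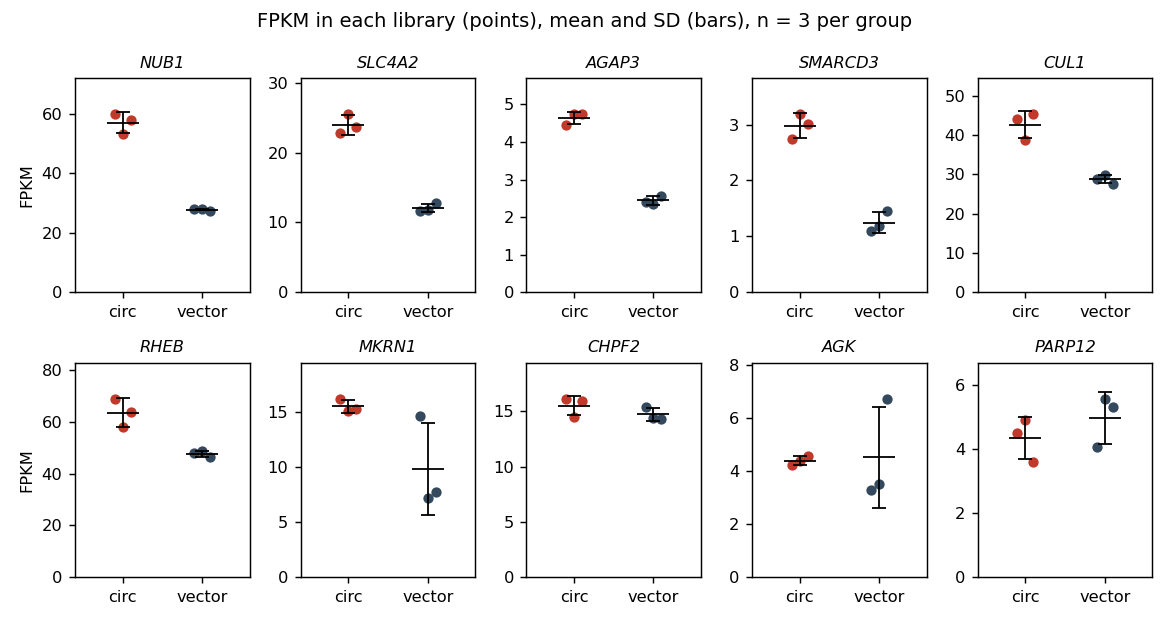
FPKM in each library for 10 genes of 7q34 to q36 (y axis, FPKM from 0; x axis, circ_0005358 libraries, marked circ, in red on the left and vector libraries in dark blue on the right). Points are libraries and bars are the mean with its SD (n = 3 per group). NUB1, SLC4A2, AGAP3, SMARCD3, CUL1 and RHEB are apart between groups, MKRN1 and AGK each have 1 vector library far above the other two, and CHPF2 and PARP12 overlap.

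The chromatin genes differed in size of shift. SMARCD3, a subunit of SWI/SNF remodelling complexes with a role in heart and muscle, had the highest ratio of all 29 genes, 2.39. It stood at 2.75, 3.19 and 3.003 FPKM in the 3 circ_0005358 libraries, against 1.096, 1.19 and 1.46 FPKM in the 3 vector libraries. It was the only called gene of the group, with a log2 fold change of 0.83 (SE 0.088). EZH2, the catalytic subunit of the Polycomb complex PRC2, stood at 17.04, 15.2 and 17.7 FPKM in the 3 circ_0005358 libraries, against 12.9, 13.8 and 14.4 FPKM in the 3 vector libraries. Its groups did not overlap, but its log2 fold change of 0.26 (SE 0.078) did not pass. KMT2C, a methyltransferase that marks enhancers, stood at 9.82, 10.1 and 9.78 FPKM in the 3 circ_0005358 libraries, against 8.67, 7.603 and 9.51 FPKM in the 3 vector libraries. Vector replicate 3 was just below the circ_0005358 libraries of KMT2C, and its log2 fold change of 0.19 (SE 0.086) was not called either.

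All 6 genes with mitochondrial roles were tested, with a median log2 fold change of 0.30. All were positive, AGK not under rescaling, and SSBP1 was the called one. SSBP1, which coats single-stranded mitochondrial DNA, stood at 13.8, 12.1 and 13.4 FPKM in the 3 circ_0005358 libraries, against 9.52, 9.43 and 9.46 FPKM in the 3 vector libraries. Its vector libraries were nearly equal and the circ_0005358 libraries were all higher (log2 fold change 0.43, SE 0.065). Its row also carries the name of the pseudogene TAS2R6P. FASTK, an RNA-binding protein of the mitochondrial transcript machinery, stood at 17.7, 21.9 and 17.4 FPKM in the 3 circ_0005358 libraries, against 12.6, 12.8 and 14.7 FPKM in the 3 vector libraries. The FASTK groups did not overlap, and its log2 fold change of 0.47 (SE 0.113) missed the threshold. ABCB8, an ABC transporter of the inner membrane, had a log2 fold change of 0.29 (SE 0.094), and MRPS33, a protein of the small mitochondrial ribosomal subunit, one of 0.15 (SE 0.116).

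AGK, a lipid kinase that is also part of a carrier translocase of the inner membrane, had nearly equal group means. It stood at 4.22, 4.38 and 4.57 FPKM in the 3 circ_0005358 libraries, against 3.304, 3.52 and 6.73 FPKM in the 3 vector libraries. Vector replicate 3 was the highest library and the other vector libraries were the lowest. The row of ADCK2, a kinase-like protein, also holds NDUFB2, a subunit of respiratory complex I, so its log2 fold change of 0.30 (SE 0.105) cannot be given to either gene.

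Of the genes of transport and ABC proteins, both that were tested were called, with a median log2 fold change of 0.71. SLC4A2, the gene of the chloride-bicarbonate exchanger AE2, stood at 22.8, 25.5 and 23.6 FPKM in the 3 circ_0005358 libraries, against 11.7, 11.8 and 12.8 FPKM in the 3 vector libraries. The groups were far apart (log2 fold change 0.93, SE 0.067), with a ratio of group means of 1.98. ABCF2, an ABC protein without membrane spans, stood at 28.6, 28.2 and 29.5 FPKM in the 3 circ_0005358 libraries, against 20.5, 21.02 and 19.3 FPKM in the 3 vector libraries. It was called as well, with no overlap and a log2 fold change of 0.49 (SE 0.054). TMEM139 lay just outside the filter, at 0.873 FPKM in the library ranked 3 of 6, and KRBA1 was the gene just inside it, at 1.84 FPKM in the library ranked 3 of 6. SLC4A2 overlaps CDK5 on the opposite strand, and the labels do not say whether fragments were counted by strand.

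Secretory genes were divided. PDIA4, a disulfide isomerase of the endoplasmic reticulum and the most abundant of the 29 genes, stood at 72.8, 71.2 and 79.6 FPKM in the 3 circ_0005358 libraries, against 52.4, 55.4 and 44.8 FPKM in the 3 vector libraries. All circ_0005358 libraries were above the vector libraries, with a log2 fold change of 0.55 (SE 0.096). GALNT11, which starts O-linked sugar chains, was also called (log2 fold change 0.43, SE 0.093, ratio 1.43). CHPF2, an enzyme of chondroitin chain synthesis, stood at 16.1, 14.5 and 15.9 FPKM in the 3 circ_0005358 libraries, against 15.4, 14.4 and 14.3 FPKM in the 3 vector libraries. Its groups overlapped and its log2 fold change was 0.07 (SE 0.064), although it lies between ABCF2 and SMARCD3, both of which were called. RARRES2, which encodes the chemoattractant chemerin, was below the filter, with no library above 0.659 FPKM.

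Of the genes of cell death, DNA repair and ADP-ribosylation, CASP2, an initiator caspase, was called. It stood at 21.5, 21.6 and 22.3 FPKM in the 3 circ_0005358 libraries, against 15.2, 15.4 and 16.1 FPKM in the 3 vector libraries. Libraries within each group were close and the groups were apart (log2 fold change 0.46, SE 0.050). PARP12, a mono-ADP-ribosyltransferase of antiviral responses and the most proximal listed gene, was the only one of the 29 with a negative log2 fold change. It stood at 4.497, 4.90 and 3.599 FPKM in the 3 circ_0005358 libraries, against 4.04, 5.56 and 5.302 FPKM in the 3 vector libraries, with overlapping groups and a log2 fold change of -0.16 (SE 0.145). XRCC2, a factor of homologous recombination, was below the filter and stood at 0.575, 1.46 and 0.784 FPKM in the 3 circ_0005358 libraries, against 0.439, 0.948 and 0.394 FPKM in the 3 vector libraries, with no separation of the groups.

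The cytoskeletal genes ZYX and ACTR3B were both higher in every circ_0005358 library than in any vector library, and neither was called. ZYX, which encodes the focal adhesion protein zyxin, stood at 44.8, 55.3 and 44.6 FPKM in the 3 circ_0005358 libraries, against 34.5, 39.7 and 44.1 FPKM in the 3 vector libraries. Its circ_0005358 replicates 1 and 3 were barely above vector replicate 3 (log2 fold change 0.28, SE 0.128). ACTR3B, which encodes a form of the actin-related protein Arp3 and is the most distal listed gene, stood at 2.401, 2.54 and 2.71 FPKM in the 3 circ_0005358 libraries, against 2.03, 1.89 and 1.51 FPKM in the 3 vector libraries. Its log2 fold change of 0.34 (SE 0.093) did not pass. Among genes of less known role, the zinc finger gene REPIN1, whose row joins 4 names, stood at 1.22, 2.47 and 5.04 FPKM in the 3 circ_0005358 libraries, against 3.53, 3.31 and 1.105 FPKM in the 3 vector libraries, and these values varied more within groups than between them. KRBA1, a gene with a KRAB domain, stood at 1.84, 1.86 and 1.21 FPKM in the 3 circ_0005358 libraries, against 1.28, 1.45 and 1.95 FPKM in the 3 vector libraries, with circ_0005358 replicate 3 the lowest library and vector replicate 3 the highest. FAM131B stayed below the filter, with no library above 0.145 FPKM. Among the listed genes below the filter, means were lower with circ_0005358 for DENND2A, FAM131B, RARRES2 and EPHA1 (ratios 0.313, 0.390, 0.423 and 0.453). For TMEM139 and XRCC2 they were higher (ratios 1.09 and 1.58). These ratios rest on low values and were not tested.

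The genes were also divided by their mean level. Of the 14 genes with a mean of at least 10 FPKM, 8 were called, 13 did not overlap between groups and the median log2 fold change was 0.47. Of all tested loci at that level 7.79% were called higher, and in 21.8% every circ_0005358 library lay above every vector library. Of the 15 below 10 FPKM, 5 were called, 8 did not overlap and the median was 0.29, where over all tested loci below 10 FPKM the shares were 5.76% called higher and 18.9% with circ_0005358 above. The difference between these sets was not tested. Across the 29 genes Pearson's r between the log2 fold change and log2 of the mean FPKM was 0.37 and Spearman's rho was 0.38, values that describe genes of the same 6 libraries on a scale that itself understates low genes. Over all tested loci r was 0.03.

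The shift was present in each library with the circular RNA plasmid. The genes were chosen on fold changes of these same libraries, so this is a description and no separate support. Vector libraries lie around 0 by construction, since their own mean is the reference. Relative to the mean of the vector libraries, the median over the 29 genes was 0.38, 0.32 and 0.41 in circ_0005358 replicates 1, 2 and 3 (log2 of FPKM + 1), against -0.030, 0.005 and 0.046 in vector replicates 1, 2 and 3. Above the vector mean lay 25, 26 and 27 of the 29 genes in the circ_0005358 libraries, against 13, 15 and 17 in the vector libraries. Over all tested loci the same median did not exceed 0.04 in any library. The shallowest library, circ_0005358 replicate 2, had the smallest of the 3 medians.

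**Figure D2:**
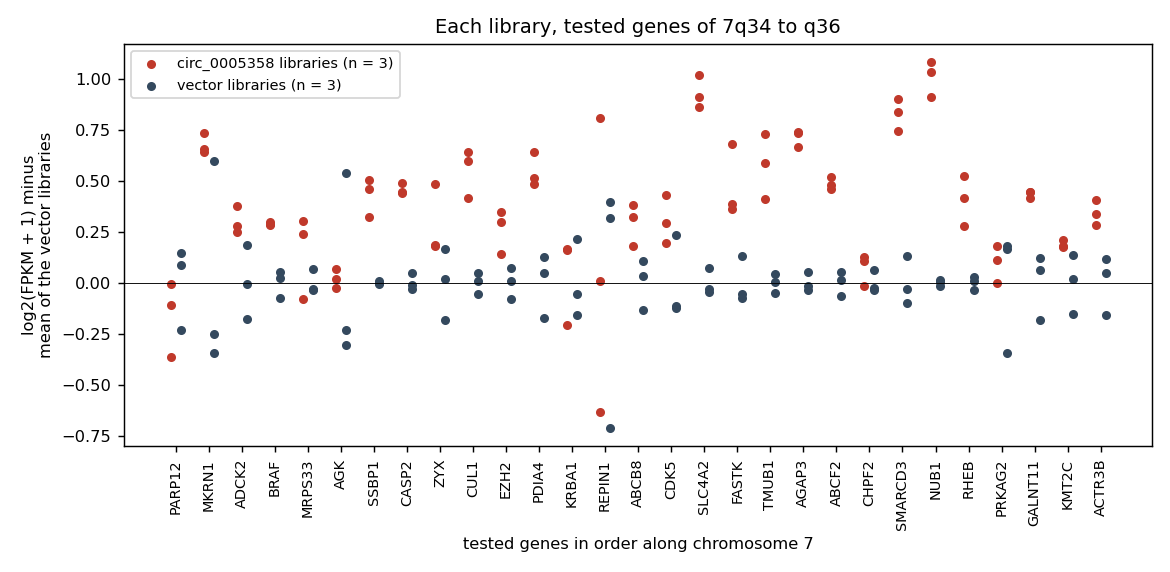
Each of the 29 tested genes in order along chromosome 7 (x axis), with log2(FPKM + 1) minus the mean of the vector libraries on the y axis. Red points are the 3 circ_0005358 libraries and dark blue points the 3 vector libraries. Most red points lie above 0 and above the blue points of the same gene, the exceptions being genes such as PARP12, AGK, KRBA1 and REPIN1.

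Along the chromosome the listed genes stood in a longer run of loci with positive medians. The 9 tested listed genes from PARP12 to ZYX had a median of 0.29 with 3 called, and the 20 from CUL1 to ACTR3B had a median of 0.42 with 10 called. Over all tested loci of the chromosome 15.2% were called, and 11.4% were called higher. The 500 tested loci of chromosome 7 were taken in order of their GRCh38 start in groups of 10, which gave 50 groups. The groups from EXOC4 (start 133253073) to PAXIP1 (start 154943687) had medians of 0.54, 0.34, 0.296, 0.36, 0.44, 0.17, 0.48 and 0.33, from proximal to distal. Proximal to them the 3 nearest groups, from POT1 to CHCHD3, had medians of 0.23, 0.11 and 0.11, and the last group of the chromosome, from INSIG1 to WDR60, had one of -0.03. Over the genome 36 of 1017 such groups had a median of at least 0.3, 6 of them on chromosome 7, and the highest of all was the group that starts at EXOC4. Groups with 5, 3, 9 and 7 listed genes are among these 6, and those genes were chosen on the same fold changes. The rank is therefore a description. The group with 0.17, from ZNF398 to LRRC61, holds a cluster of zinc finger genes and 1 listed gene, KRBA1. The 160 tested loci of the short arm had a median of -0.11 and the 244 tested loci of the long arm before the 30 nearest to PARP12 one of 0.14. Over whole chromosomes the median was 0.09 on chromosome 7, 0.19 on chromosome 9, 0.20 on chromosome 21 and 0.03 on chromosome 2. Positive medians were therefore not particular to chromosome 7.

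**Figure D3:**
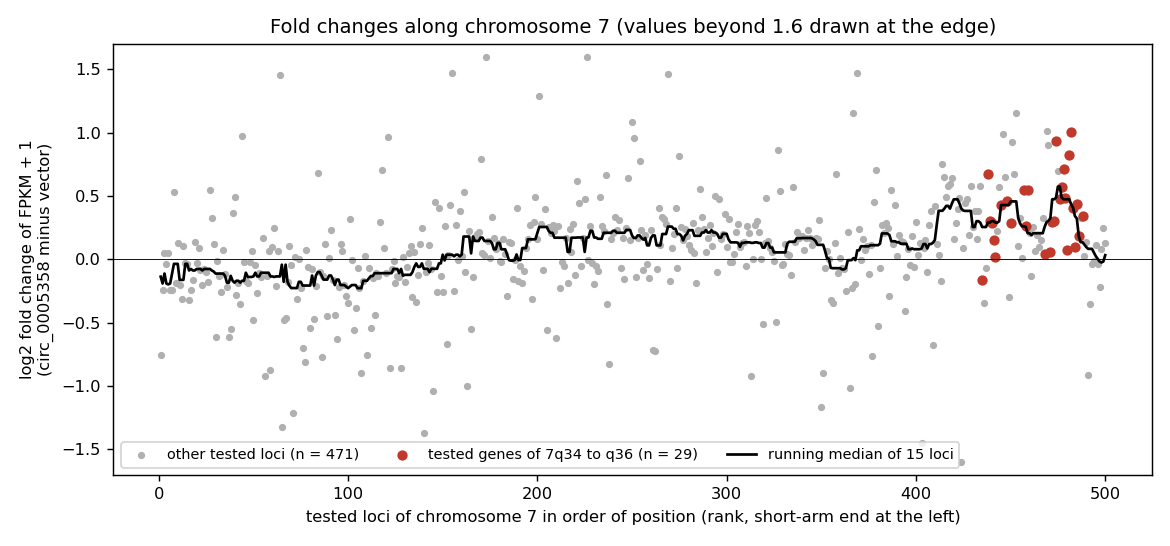
Log2 fold change of each of the 500 tested loci of chromosome 7 (y axis, circ_0005358 minus vector, FPKM + 1) in order of position (x axis, rank from the end of the short arm). Red points are the 29 tested listed genes, grey points the 471 other loci, and the line is the running median of 15 loci; values beyond the axis are drawn at its edge. The line lies mostly below 0 over the short arm (median -0.11), is highest over the listed genes and the loci just before them, and is near 0 at the distal end (median 0.005 over the last 12 loci).

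The 25 tested loci between PARP12 and ACTR3B that were not listed had a median log2 fold change of 0.26, and 21 of them were positive. Of these 25, 4 were called higher and 0 lower, beside 6.41% and 4.96% of all tested loci. At an unadjusted p under 0.05 by limma the counts were 8 and 1. The 25 loci come from the same contrast and are neighbours of the listed genes, so they too are a description. Their median was 0.79 with FPKM of at least 5 required and -0.025 with no filter on low values. EPHB6, a kinase-dead ephrin receptor gene, stood at 6.14, 7.45 and 7.49 FPKM with circ_0005358 and 3.17, 2.69 and 3.23 FPKM with vector. GSTK1, a peroxisomal and mitochondrial glutathione transferase gene chosen after its values were seen, averaged 22.4 ± 1.05 FPKM with circ_0005358 and 13.9 ± 0.609 FPKM with vector (SD, n = 3 each). Both were called, and their groups did not overlap. The other 2 called loci were OR2A9P, an olfactory receptor pseudogene, and AC010973.2, which overlaps the listed gene SLC4A2 on the opposite strand. The labels do not say whether fragments were counted by strand, so fragments of SLC4A2 could have been assigned to AC010973.2. KDM7A, a histone demethylase gene beside PARP12, was at 2.29, 1.84 and 1.596 FPKM with circ_0005358 and 2.73, 2.56 and 2.76 FPKM with vector, with a log2 fold change of -0.35 (SE 0.102) that was not called. Among the protein-coding genes of these loci ZNF398 and SLC37A3 had the next smallest log2 fold changes, -0.13 and -0.06. ARHGEF35 and ATP6V0E2 had larger estimates than EPHB6 and were not called. ARHGEF35 was listed at 0 in vector replicate 2 alone. ATP6V0E2 stood at 6.75, 7.88 and 7.62 FPKM with circ_0005358 and 1.38, 1.99 and 9.06 FPKM with vector, with vector replicate 3 above every circ_0005358 library and the other vector libraries below them.

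On the proximal side positive fold changes went on beyond the listed genes. Of all tested loci 6.41% were called higher and 4.96% lower. Of the 30 tested loci before PARP12, 26 were positive, 10 were called higher and 1 lower, and their median was 0.38. Among them, named after their values were seen, NUP205, a subunit of the nuclear pore, stood at 53.1, 48.8 and 50.2 FPKM with circ_0005358 and 37.95, 38.8 and 37.6 FPKM with vector. CREB3L2, a membrane-bound transcription factor gene, averaged 20.9 ± 0.342 FPKM with circ_0005358 and 15.1 ± 0.390 FPKM with vector (SD, n = 3 each). The aldo-keto reductase gene AKR1B1 stood at 632, 524 and 571 FPKM with circ_0005358 and 427, 304 and 304 FPKM with vector, and CALD1, which encodes the actin-binding caldesmon, had a log2 fold change of 0.58 (SE 0.085). These 4 genes had non-overlapping groups and were called higher. PODXL, a sialomucin gene, was the locus called lower (log2 fold change -0.67, SE 0.124).

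On the distal side the median beyond ACTR3B was near 0. Of the 12 tested loci beyond it, from PAXIP1-AS2 to WDR60, 6 were positive, and the median was 0.005. limma called 0 of the 12 in either direction, with 1 higher and 2 lower at an unadjusted p under 0.05. Over all tested loci 11.4% were called, so 0 of 12 does not by itself set these loci apart. UBE3C, a ubiquitin ligase gene, stood at 35.9, 33.1 and 33.8 FPKM with circ_0005358 and 36.5, 35.2 and 33.6 FPKM with vector, with a log2 fold change of -0.03 (SE 0.058). ESYT2, a membrane tether gene, had one of 0.25 (SE 0.084), and INSIG1, a sterol sensor gene that varied among libraries, one of -0.91 (SE 0.329). The listed gene nearest to this edge, ACTR3B, had a log2 fold change of 0.34 and the first locus beyond it, PAXIP1-AS2, one of 0.03. At the other edge PARP12 had -0.16 and HIPK2, the tested locus just before it, 0.58 (SE 0.398).

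Partners of the listed genes in the same complexes and pathways were looked at for comparison. They comprise 122 genes in 14 lists that were written down by textbook role, all outside the stretch between PARP12 and ACTR3B, and 19 entries stand in rows that join several genes. The lists cover 116 tested loci, with 5 of the genes on chromosome 7. Their median log2 fold change was 0.04 with quartiles of -0.09 and 0.14, and 64 of the 116 were positive. limma called 5 higher and 3 lower, 6.9% of the loci tested, beside 11.4% of all tested loci.

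The 5 that were higher were WDR5, SMARCC2, NEDD8, MRPS5 and MRPS9. MRPS9, of the small mitochondrial ribosomal subunit, stood at 20.5, 19.9 and 20.5 FPKM with circ_0005358 and 15.9, 15.7 and 16.01 FPKM with vector (adjusted p = 0.0108, limma, n = 3 each). WDR5, a core subunit of the COMPASS methyltransferase complexes, differed by 0.32 on the log2 scale (SE 0.060, limma adjusted p = 0.0282). SMARCC2, a SWI/SNF subunit, differed by 0.29 on the log2 scale (SE 0.059, limma adjusted p = 0.0361). The row of MRPS5 joins a further gene and differed by 0.24 on that scale (limma adjusted p = 0.0492). The row of NEDD8, the modifier that NUB1 and CUL1 act with, also joins further genes and differed by 0.26 (limma adjusted p = 0.0454). MRPS5 and MRPS9 lie on chromosome 2, WDR5 on chromosome 9, SMARCC2 on chromosome 12 and NEDD8 on chromosome 14.

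The 3 that were lower were ARPC2, ENAH and BTRC. ARPC2, a subunit of the Arp2/3 actin nucleator, stood at 17.0, 14.6 and 16.7 FPKM with circ_0005358 and 26.6, 26.98 and 25.1 FPKM with vector (limma adjusted p = 0.00570). The log2 fold change of the Arp3 form ACTR3B was 0.34. ENAH, an actin regulator that binds zyxin, averaged 16.97 ± 0.854 FPKM with circ_0005358 and 22.6 ± 1.12 FPKM with vector (SD, n = 3 each), with a limma adjusted p = 0.0193. BTRC, a substrate receptor of SCF ligases, differed by -0.24 on the log2 scale (SE 0.055, limma adjusted p = 0.0469). PHF19, an accessory subunit of PRC2, differed by 0.44 on the log2 scale (SE 0.148, limma adjusted p = 0.126). Without circ_0005358 replicates 1, 2 or 3 the partner calls numbered 3, 4 and 3, and without vector replicates 1, 2 or 3 they numbered 2, 1 and 4. The highest adjusted p of each over its alternatives lay between 0.0629 (ARPC2) and 0.188 (MRPS5).

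Set beside its own partners, each of 15 listed genes with a partner list lay above the median of that list, and 8 lay above every tested partner in it. These 8 include PRKAG2, at 0.097 (SE 0.161) level with its highest partner PRKAA2 at 0.096, and CDK5, which had 3 tested partners. PRKAG2, CDK5 and ACTR3B, all among the 8, were not called. CUL1 at 0.55 compared with a median of 0.04 over 13 partners, SMARCD3 at 0.83 with 0.03 over 9, CASP2 at 0.46 with 0.01 over 6, PDIA4 at 0.55 with 0.07 over 7 and RHEB at 0.41 with 0.06 over 7. EZH2 at 0.26 compared with a median of -0.08 over 9 PRC2 partners, of which PHF19 alone was higher, and BRAF at 0.29 with one of -0.07 over 6 partners. Since the listed genes were chosen for their fold changes, this order between them and their partners is a description and was not tested.

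**Figure D4:**
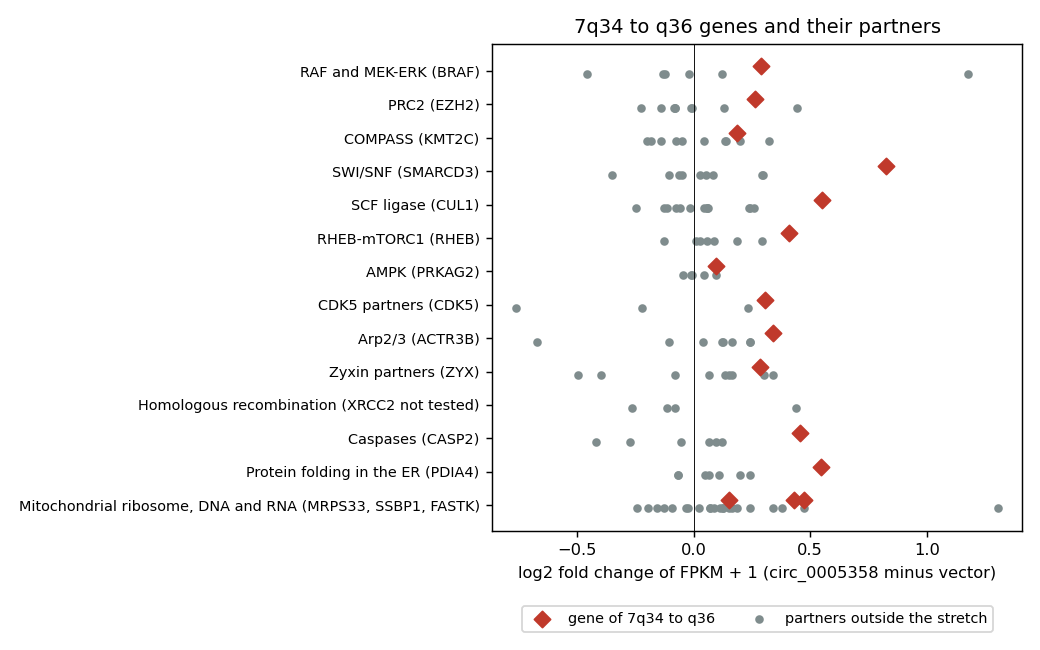
Log2 fold change (x axis, circ_0005358 minus vector, FPKM + 1) of listed genes (red diamonds) and of genes of the same complex or pathway outside the stretch (grey points), with 1 row per list. The diamonds lie to the right of most grey points of their row, and the grey points of the 14 lists centre near 0.

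Rows can mix genes. Pairs of listed genes overlap on opposite strands (CDK5 with SLC4A2, CHPF2 with SMARCD3, ZYX with EPHA1, and ADCK2 with DENND2A), and GENCODE 29 lists pseudogenes of BRAF, MRPS33, AGK, ZYX, CUL1, EZH2, CDK5, ABCF2, RHEB, RARRES2 and ACTR3B, to which fragments could have been assigned. Calls among the 29 genes, 13 with all libraries, numbered 7 without circ_0005358 replicate 3, 7 without vector replicate 1, 8 without vector replicate 2 and 8 without vector replicate 3, while the median log2 fold change lay between 0.34 and 0.40 without any 1 library. NUB1, SLC4A2 and SMARCD3 were called under every alternative that gave them a value. ABCF2, CASP2 and CUL1 kept their call in 15 of 17 alternatives each and AGAP3 in 15 of 16. The call held less often for SSBP1 (10 of 16), PDIA4 and TMUB1 (10 of 17 each), RHEB (9 of 17), BRAF (8 of 17) and GALNT11 (7 of 17).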

How the data were processed

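PolyA RNA of SiHa cells was sequenced in 6 libraries, 3 per group. The authors deposited 1 table of FPKM values, 1 column per library, with no counts. The tools Trimmomatic and HISAT2 and the build hg19 are named in the submitters' processing notes. Tool versions and how FPKM was computed, with which gene models, were not given in the sources used here.

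A listed gene was taken from the row that holds its symbol. GENCODE 29 (GRCh38) gave positions and gene types, and 99.9% of the Ensembl transcript identifiers of the table were found there. Positions are therefore on another build than the one named in the notes. limma 3.58.1 in R 4.3.3 was run, two-sided and with a variance trend, on log2(FPKM + 1) of all 10295 loci with FPKM of at least 1 in 3 libraries. It was tested on simulated data. The replicate numbers were not taken to pair the libraries.

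The genes, the role groups, the partner lists and the tests were chosen with earlier results of these data known. Values of every library are given for the 2 most abundant tested genes of each role group and for the 5 largest and 5 smallest fold changes. Of the partner genes, up to 2 per list with the smallest p were eligible to be named. Those called and PHF19 are named, and some others are not reported here. Of neighbours, the 3 largest and 3 smallest fold changes among protein-coding genes are named. Python 3.11.15 with pandas 2.3.3 was used for the rest.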

Additional observations from a re-analysis of the deposited data

How the results depend on the processing

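The 29 genes had 13 calls higher and 0 lower, and the count of lower calls was 0 under all 17 alternatives, also at an unadjusted p under 0.05. The higher calls numbered 8 with no filter, 4 with the replicate number as a block, 4 without both vector replicate 3 and circ_0005358 replicate 2, and 7 to 10 without any 1 library. The median log2 fold change of 0.34 moved to 0.41 at pseudocounts of 0.1 and 0.5, 0.43 with FPKM of at least 5, 0.29 with no filter and 0.44 without both libraries, and lay between 0.34 and 0.40 without any 1 library. The 1171 calls over all loci became 591 with no filter, 259 with the block, 198 without both libraries and 485 to 761 without any 1 library. The 8 partner calls became 2 with no filter, 5 after rescaling to the same sum, 0 with the block (limma, 19 at an unadjusted p under 0.05), 2 without both libraries and 1 to 4 without any 1 library. The median of the unlisted loci between PARP12 and ACTR3B, 0.26, was 0.79 with FPKM of at least 5, -0.025 with no filter and 0.19 to 0.35 without any 1 library. Among uncalled genes near 0 the sign turned for AGK (-0.001 rescaled to the same sum, -0.009 by quantile normalization, -0.001 centred on the median), REPIN1 (-0.27) and ZNF398 (0.041 without both libraries). Without 1 library AGK ranged from -0.134 to 0.289, KRBA1 from -0.04 to 0.163, PRKAG2 from -0.074 to 0.187, REPIN1 from -0.314 to 0.408 and ZNF398 from -0.288 to 0.025. The cause of these changes was not tested. Deviations of same-numbered libraries from their group means correlated at 0.0644, 0.0481 and 0.0781 over 10295 loci, so the numbers were not taken to pair the libraries. Depth is known only relative to the deepest library, and it limits the genes below the filter.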
